A study of Mus musculus with 44 samples.

Results

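Chemokine receptors other than *Ccr7* were examined in dendritic cells (DCs) sorted from tumour-draining lymph nodes. The 9 genes *Ccr1*, *Ccr2*, *Ccr6*, *Ccr9*, *Cx3cr1*, *Cxcr3*, *Cxcr4*, *Cxcr5* and *Cxcr6* were taken by symbol from the 14699 genes of the expression table, and all 9 were among the 11963 genes that reached 1 CPM (count of reads scaled to the library's total on genes) in at least 5 of 44 libraries. *Ccr1* passed this filter only through the KO and PBS groups, with 1 CPM or more in 3 of 20 WT, 11 of 12 KO and 9 of 12 PBS libraries, so it could enter the tests only by being higher there than in WT, and counts are also given without it.

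RNA-seq was carried out on CD45+CD11c+MHCIIhigh cells of the inguinal lymph node, 24 h after subcutaneous injection at ZT3, ZT9, ZT15 or ZT21, where ZT0 is the onset of light in a cycle of equal light and dark periods. All mice were females of 8 to 12 weeks. The WT group (control mice given B16-F10-OVA cells, a mouse melanoma line that carries ovalbumin) had 20 libraries, 5 per timepoint, and the PBS group (control mice given PBS alone, the sham condition) had 12, 3 per timepoint. The KO group had 12 libraries, 3 per timepoint, of *Clec9a-cre:Bmal1* flox mice (*Bmal1* ΔcDC) given the same tumour cells. These mice were homozygous for the floxed *Bmal1* (*Arntl*) allele and heterozygous for Cre, which the *Clec9a* promoter drives in conventional DCs. No KO group was given PBS, so the effect of the genotype without tumour cells was not measured.

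The targeted gene, *Arntl*, gave no lower level in the KO group than in WT. It was 8.67 to 24.4 CPM in WT (median 14.8), 11.5 to 38.0 CPM in KO (median 18.0) and 12.3 to 34.8 CPM in PBS libraries (median 21.9), and averaged over time it was 0.38 higher in KO than in WT on the log2 scale (standard error 0.12, limma adjusted p = 0.0153). Reads were summed over the whole gene, so loss of single exons would not be seen, and the group is named here by its label. The number of reads on genes, obtained from the size of the smallest steps in CPM, was 20088013 to 28962671 in WT, 29406730 to 55799164 in KO and 28003329 to 49590056 in PBS libraries, so that depth moved with the groups. All KO libraries had more reads than all WT libraries, and PBS libraries overlapped WT only at the ends of their ranges. The sources used here do not give which libraries were prepared or sequenced together. Differences of WT from KO or PBS libraries cannot be told apart from such handling. The markers of DCs in general and of migratory DCs were high in every group, with summed levels of 12710 to 24720 and 12990 to 22180 CPM, respectively. *Ccr7*, the receptor by which DCs enter lymph nodes, was 5266 ± 587 CPM (SD, n = 20) in WT libraries.

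Chemokine receptors are membrane proteins that couple to inhibitory G proteins and turn a gradient of secreted chemokines into directed migration. Mature migratory DCs are known for high *Ccr7*, whereas most receptors described here are better known from monocytes, NK cells, innate lymphoid cells, T cells, B cells and plasmacytoid DCs. The receptors therefore bear both on the state of the sorted DCs and on which cells were collected. In bulk libraries such as these, fewer cells of a type and less RNA per cell cannot be told apart.

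Of the 9 genes, 6 are on chromosome 9. Coordinates are those of RefSeq on GRCm38.p6, the mm10 assembly to which the reads were aligned, and all 9 are protein-coding genes whose exons were counted together. *Ccr9* (chr9:123767211-123783457), *Cxcr6* (chr9:123806477-123811754), *Ccr1* (chr9:123962126-123968692) and *Ccr2* (chr9:124101918-124109140) are in one cluster. *Cx3cr1* (chr9:120048683-120068296) and *Cxcr5* (chr9:44511787-44526444) are elsewhere on that chromosome. *Cxcr4* is at chr1:128588199-128592299, *Ccr6* at chr17:8236041-8258519 and *Cxcr3* at chrX:101731535-101734147.

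The stretches upstream of *Cxcr6* and *Ccr1* are shown because *Cxcr6* had the difference with the smallest adjusted p and *Ccr1* was the only receptor called higher in KO than in PBS libraries, a call that was lost on omitting some single libraries. The *Ccr1* stretch ends at the base before the gene and the *Cxcr6* stretch 2 bases short of it, and both are given 5′ to 3′ on the strand of the gene, from RefSeq promoters of GRCm38.p6. Capitals mark ACCACA, the reverse complement of TGTGGT, a core motif of RUNX factors.
*Cxcr6*, chr9:123806227-123806474, plus strand: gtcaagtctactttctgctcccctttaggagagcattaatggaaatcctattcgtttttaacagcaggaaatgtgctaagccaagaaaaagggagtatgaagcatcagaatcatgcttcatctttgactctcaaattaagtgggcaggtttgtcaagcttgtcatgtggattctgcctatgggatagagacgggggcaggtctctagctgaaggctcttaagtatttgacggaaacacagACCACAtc
*Ccr1*, chr9:123968693-123968942, minus strand: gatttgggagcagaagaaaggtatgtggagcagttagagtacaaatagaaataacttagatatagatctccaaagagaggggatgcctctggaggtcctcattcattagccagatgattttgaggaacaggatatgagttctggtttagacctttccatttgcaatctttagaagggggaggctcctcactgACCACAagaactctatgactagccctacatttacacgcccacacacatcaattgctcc
The match lies 2 bases before the end of the *Cxcr6* stretch and 52 bases before the end of the *Ccr1* stretch. TGTGGT, searched on both strands in the 250 bases before each start, was in 4 of the 9 windows of 8 receptor genes (*Ccr1*, *Cx3cr1*, *Cxcr3* and *Cxcr6*), and in 14.05% of all 32851 promoters. The canonical E-box CACGTG, the motif bound by the clock proteins BMAL1 and CLOCK, was in 0 of the 9 windows and in 6.02% of all promoters, so no match of one motif overlapped the other. Both motifs were chosen after the values were seen, and a match or its absence in these letters describes the sequence only.

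Compared per length of exon, *Cxcr6*, *Ccr6* and *Cxcr4* were the most abundant of these receptors in every group. In PBS libraries, *Cxcr6* was first with 83.4 ± 32.5 CPM per kb (SD, n = 12), followed by *Ccr6* with 29.7 ± 13.9 and *Cxcr4* with 28.7 ± 2.93 CPM per kb. *Cxcr3* (10.4 ± 3.16), *Ccr2* (8.73 ± 1.81), *Cx3cr1* (4.28 ± 1.49), *Ccr9* (1.76 ± 0.552), *Cxcr5* (1.41 ± 0.631) and *Ccr1* (0.579 ± 0.271 CPM per kb) followed. Neighbours whose ranges of mean ± SD overlapped were *Ccr6* and *Cxcr4*, *Cxcr3* and *Ccr2*, *Ccr9* and *Cxcr5*, and *Cxcr5* and *Ccr1*.

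In WT libraries the order began with *Cxcr4* at 31.2 ± 3.02 CPM per kb (SD, n = 20), well above *Cxcr6* (8.59 ± 5.35) and *Ccr6* (7.87 ± 1.91), which overlapped each other. *Cxcr3* (2.63 ± 1.09), *Cx3cr1* (1.71 ± 0.905), *Ccr2* (1.33 ± 0.868) and *Cxcr5* (1.26 ± 0.433) each overlapped the next, and *Ccr9* (0.514 ± 0.202 CPM per kb) was below them. *Ccr1* was last with 0.158 ± 0.226 CPM per kb, overlapping *Ccr9*, and 7 of the 20 WT libraries had no *Ccr1* read, which at their depth allows up to 0.116 to 0.133 CPM (3 reads, counting error only). In KO libraries *Cxcr6* was first (47.9 ± 18.1 CPM per kb, SD, n = 12), followed by *Cxcr4* (26.1 ± 3.98) and *Ccr6* (13.4 ± 2.74), and each receptor overlapped the next except *Cxcr4* with *Ccr6*. This scale uses the union of annotated exons, longest for *Ccr9* (10260 bases, with long read-through transcripts), *Ccr2* (6760 bases) and *Cx3cr1* (4505 bases). Their levels per kb are the least certain, since a union longer than the transcripts present lowers the value.

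**Figure D1:**
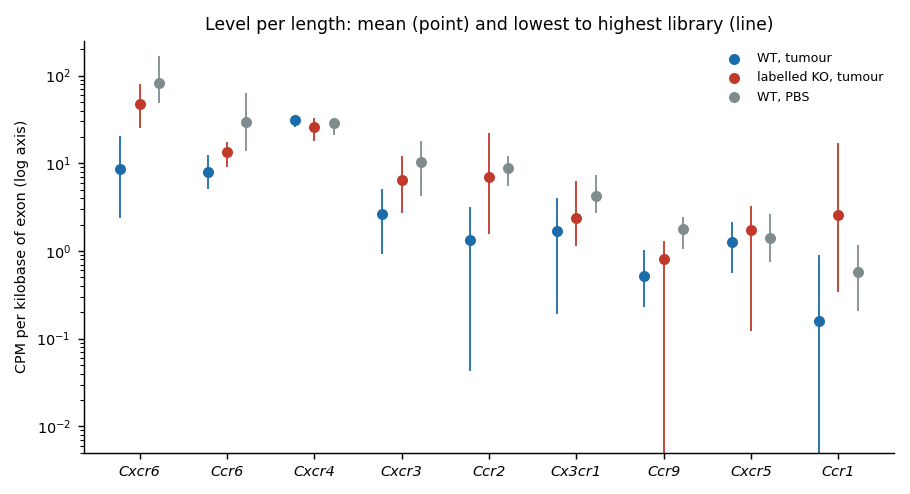
Level of each receptor in CPM per kilobase of annotated exon (log axis) in WT tumour, KO tumour and PBS libraries. Points are means over 20, 12 and 12 libraries and lines run from the lowest to the highest library, and a line that meets the foot of the plot includes libraries at 0 (*Ccr1* in WT, *Ccr9* in KO). Group means of *Cxcr4* lie within 26.1 to 31.2 CPM per kb, whereas those of *Cxcr6* span 8.59 to 83.4 CPM per kb.

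Tumour cells against sham were compared in control mice, in groups that also differed in depth. Of the 9 receptors, 7 were lower in WT tumour than in PBS libraries after averaging over time (limma adjusted p under 0.05), where 37.9% of all genes tested passed and 24.6% passed as lower. These were *Cxcr6*, *Ccr2*, *Cxcr3*, *Ccr6*, *Ccr9*, *Cx3cr1* and *Ccr1*, whereas *Cxcr4* and *Cxcr5* did not pass. Without *Ccr1*, 6 of 8 were lower. The median difference on the log2(CPM + 0.5) scale was −1.71 for the 9 receptors, −1.75 without *Ccr1* and −0.04 for all genes.

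*Cxcr6* encodes the receptor of CXCL16 and is known from NK cells, innate lymphoid cells and effector T cells. WT libraries had 28.1, 35.0, 20.97, 15.8 and 12.7 CPM at ZT3, 5.58, 7.43, 4.88, 4.55 and 6.06 CPM at ZT9, 39.8, 18.7, 25.03, 27.9 and 19.4 CPM at ZT15, and 14.9, 6.23, 9.66, 16.5 and 12.5 CPM at ZT21. PBS libraries had 168, 116 and 184 CPM at ZT3, 108, 95.3 and 195 CPM at ZT9, 171, 322 and 130 CPM at ZT15, and 195, 94.3 and 154 CPM at ZT21. Every WT library was below every PBS library. Averaged over time the log2 difference was −3.42 (standard error 0.17, limma adjusted p = 2.70e-14), and the ratio of PBS to WT means ran from 6.92 at ZT3 to 23.3 at ZT9.

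*Ccr2*, which encodes the receptor of CCL2 by which monocytes leave the bone marrow, was 21.3, 19.9, 11.5, 13.4 and 10.4 CPM at ZT3 in WT libraries. It was 0.288, 3.96, 6.70, 2.62 and 1.38 CPM at ZT9, 9.99, 9.56, 12.8, 13.4 and 15.1 CPM at ZT15, and 6.11, 4.14, 4.69, 8.57 and 3.67 CPM at ZT21. The 12 PBS libraries had 37.3 to 81.8 CPM (median 60.2), above all WT libraries, and the log2 difference was −2.99 (standard error 0.21, limma adjusted p = 1.20e-11). *Ccr2* had fractions of a read in 42 of 44 libraries and the other 8 receptors in none, for which the sources used here give no reason.

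*Ccr6*, the CCL20 receptor, was 11.8 to 28.9 CPM in WT (median 17.9) and 32.1 to 148 CPM in PBS libraries (median 56.9), with no overlap. Their log2 values were −1.80 apart (standard error 0.14, limma adjusted p = 4.93e-11). The highest PBS library, ZT15 replicate 2 (147.5 CPM), was also the highest for *Cxcr6* (322 CPM), *Cxcr3* (30.9 CPM) and *Ccr2* (81.8 CPM), and had the highest summed NK cell (351 CPM, next 171 CPM), T cell (922 CPM), granulocyte (25.9 CPM, next 7.71 CPM), innate lymphoid (352 CPM), plasmacytoid DC (419 CPM) and B cell markers (117 CPM) of its group, whose part in these levels was not tested. The same library had the lowest *Ccr9* (10.7 CPM) and the lowest summed cDC2 (190.5 CPM) and migratory DC markers (12990 CPM) of its group. Without ZT15, the differences of *Ccr6*, *Cxcr6*, *Cxcr3* and *Ccr2* were −1.67, −3.59, −1.93 and −3.19, respectively.

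*Ccr9*, the CCL25 receptor of gut-homing lymphocytes and plasmacytoid DCs, was 2.37 to 10.5 CPM in WT (median 5.20) and 10.7 to 25.4 CPM in PBS libraries (median 18.4). The groups did not overlap, although the highest WT and the lowest PBS library were close. The log2 difference was −1.71 (standard error 0.14, limma adjusted p = 1.49e-10). Exons of *Ccr9* overlap *Slc6a20a* on the opposite strand and those of *Cxcr5* overlap *Bcl9l*, and a read from such an overlap cannot be assigned to a strand with this kind of library. The mean level of *Slc6a20a* was 4.43, 4.69 and 4.77 CPM in WT, KO and PBS libraries, respectively.

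*Cxcr3*, the receptor of CXCL9 and CXCL10 on effector T cells and NK cells, was 1.60 to 8.79 CPM in WT (median 4.23) and 7.27 to 30.9 CPM in PBS libraries (median 18.2). The groups overlapped over all times and were apart at each of the 4 timepoints. The log2 difference was −1.91 (standard error 0.14, limma adjusted p = 2.12e-11). *Cx3cr1*, the receptor of fractalkine on monocytes and macrophages, was 0.866 to 18.0 CPM in WT (median 6.90) and 12.2 to 32.8 CPM in PBS libraries (median 16.0). Groups overlapped at 2 of 4 timepoints, and the log2 difference was −1.40 (standard error 0.21, adjusted p = 5.42e-06).

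*Ccr1*, a receptor of CCL3, CCL5, CCL6 and CCL9 on myeloid cells, was 0 to 2.56 CPM in WT (median 0.183) and 0.591 to 3.29 CPM in PBS libraries (median 1.62). At these levels the difference, −1.31 on the log2 scale (standard error 0.25, limma adjusted p = 1.46e-04), depends on the number added before taking logs, and was −2.35 with 0.1 and −0.91 with 1 in place of 0.5.

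*Cxcr4*, the CXCL12 receptor that most leukocytes carry, was 46.5 to 65.1 CPM in WT and 37.9 to 59.9 CPM in PBS libraries, and the groups overlapped at all timepoints. The log2 difference was 0.12 (standard error 0.05, limma adjusted p = 0.0828), and with median-of-ratios scaling it was 0.17 and passed. *Cxcr5*, the CXCL13 receptor that guides B cells into follicles, was 1.89 to 7.20 CPM in WT and 2.47 to 8.73 CPM in PBS libraries, differing by −0.12 on the log2 scale (standard error 0.18, adjusted p = 0.659).

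**Figure D2:**
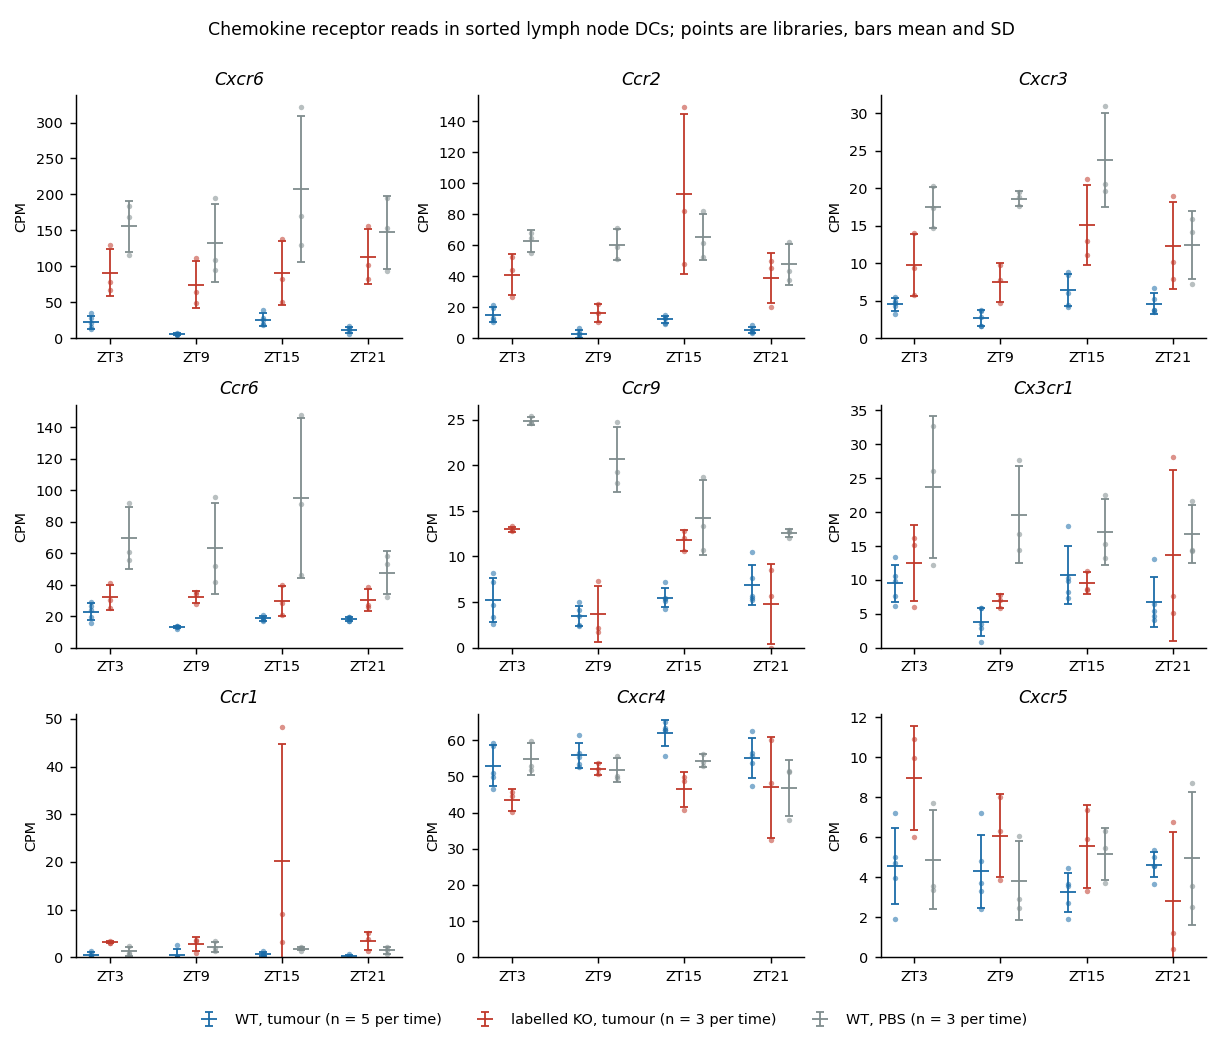
CPM of the 9 receptors (linear axes from 0) at ZT3, ZT9, ZT15 and ZT21 in WT tumour, KO tumour and PBS libraries. Points are libraries, horizontal ticks are means and bars are SD (n = 5 per timepoint in WT and n = 3 in the other groups), with bars that reach below 0 ended at the axis. For *Cxcr6* the WT libraries (4.55 to 39.8 CPM) lie under all KO (48.7 to 156 CPM) and PBS libraries (94.3 to 322 CPM).

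Libraries labelled KO were then compared with WT libraries, both after tumour cells. This comparison uses the same 20 WT libraries as the one with PBS, so the values of both are not independent of each other. Of the 9 receptors, 6 passed (limma adjusted p under 0.05, against 33.7% of all genes). They were *Cxcr6*, *Ccr1*, *Ccr2*, *Cxcr3* and *Ccr6*, which were higher in KO (a direction in which 23.5% of all genes passed), and *Cxcr4*, which was lower. Without *Ccr1*, 4 of 8 were higher and 1 lower. The median log2 difference was 0.76 for the 9 receptors, 0.62 without *Ccr1* and 0.10 for all genes.

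*Cxcr6* was 129, 66.8 and 78.4 CPM at ZT3 in KO libraries, 64.9, 48.7 and 111 CPM at ZT9, 138, 50.4 and 82.4 CPM at ZT15, and 102, 82.0 and 156 CPM at ZT21. All 12 were above all 20 WT libraries. The log2 difference was 2.62 (standard error 0.18, limma adjusted p = 1.56e-11), and the ratio of KO to WT means was 4.06 at ZT3, 13.1 at ZT9, 3.45 at ZT15 and 9.47 at ZT21.

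*Ccr2* was 26.9, 52.6 and 43.9 CPM at ZT3 in KO libraries, 10.7, 16.6 and 21.9 CPM at ZT9, 81.9, 149 and 47.8 CPM at ZT15, and 50.1, 20.4 and 45.6 CPM at ZT21. KO and WT libraries were apart at each timepoint and overlapped only between timepoints, and the log2 difference was 2.35 (standard error 0.24, limma adjusted p = 2.78e-08).

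*Ccr1* was 2.98, 3.42 and 3.05 CPM at ZT3 in KO libraries, 0.966, 3.45 and 3.56 CPM at ZT9, 3.17, 48.4 and 9.15 CPM at ZT15, and 3.89, 1.31 and 5.05 CPM at ZT21. The library at 48.4 CPM, ZT15 replicate 2, was also the highest KO library for *Ccr2*, for the summed monocyte and macrophage (2779 CPM), cDC2 (629 CPM, next 346 CPM), plasmacytoid DC (348 CPM), B cell (142 CPM) and general DC markers (24520 CPM). The same library had the lowest *Ccr6* (20.9 CPM) and the lowest summed migratory DC markers (16450 CPM) of the KO group. The part of the cells of these lists in its *Ccr1* level was not tested. The log2 difference from WT was 2.50 (standard error 0.32, limma adjusted p = 1.03e-06), and without ZT15 it was 2.18 (adjusted p = 7.36e-05). With 0.1 or 1 in place of the 0.5 added before taking logs, it was 3.71 or 1.95.

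*Cxcr3* was 4.70 to 21.2 CPM (median 9.96) in KO libraries and *Ccr6* 20.9 to 40.8 CPM (median 29.3). *Cxcr3* was apart from WT at all 4 timepoints, differing by 1.19 on the log2 scale (standard error 0.16, limma adjusted p = 2.75e-06). *Ccr6* was apart at 2 of 4 timepoints, differing by 0.76 on the log2 scale (standard error 0.09, adjusted p = 4.86e-07). *Cxcr4* was 32.5 to 60.2 CPM in KO libraries (median 48.4) and fell by 0.26 (standard error 0.07, adjusted p = 0.00337). With median-of-ratios scaling, which moved the median of all genes from 0.10 to 0.01, *Cxcr4* was −0.36 (limma adjusted p = 6.03e-04).

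*Cx3cr1* (0.47, standard error 0.23, limma adjusted p = 0.125), *Ccr9* (0.27, standard error 0.28, adjusted p = 0.491) and *Cxcr5* (0.23, standard error 0.22, adjusted p = 0.452) did not pass in KO against WT. KO ZT21 replicate 1 had no *Ccr9* read (up to 0.0883 CPM with 3 reads) and the highest *Cx3cr1* of its group (28.1 CPM). Without this library *Ccr9* was 0.59 higher in KO and passed (limma adjusted p = 0.0102). With 1 library omitted, *Ccr9* ran from 0.07 to 0.59, *Cx3cr1* from 0.30 to 0.59 and *Cxcr5* from 0.017 to 0.39. Their lowest values were without KO ZT21 replicates 3, 1 and 2, respectively. *Ccr9* was 12.7 to 13.3 CPM at ZT3 and 10.6 to 12.8 CPM at ZT15 in KO libraries, above all WT libraries at these times, and overlapped WT at ZT9 and ZT21.

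KO libraries were also set against PBS libraries, a comparison added after the values were seen. Of the 9 receptors, 7 passed, against 9.73% of all genes. *Ccr9* (−1.44, standard error 0.34, limma adjusted p = 0.0148), *Ccr6* (−1.03, standard error 0.19, adjusted p = 0.00375), *Cx3cr1* (−0.93, standard error 0.24, adjusted p = 0.0242), *Cxcr6* (−0.80, standard error 0.22, adjusted p = 0.0275), *Cxcr3* (−0.72, standard error 0.18, adjusted p = 0.0202) and *Ccr2* (−0.63, standard error 0.19, adjusted p = 0.0474) were lower in KO. These are 6 receptors, and 4.30% of all genes passed as lower. *Ccr1* alone was higher in KO than in PBS libraries (1.19, standard error 0.34, adjusted p = 0.0340). *Cxcr4* was −0.14 (adjusted p = 0.293) and *Cxcr5* 0.11 (adjusted p = 0.842).

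Some of these calls were close to the threshold and were lost on leaving out single libraries, with the direction kept. On omitting 1 library at a time, 24 in all, *Ccr2* lost the call in 16 cases (adjusted p up to 0.0864), *Ccr1* in 10 (up to 0.0613) and *Cxcr6* in 5 (up to 0.0536). Without PBS ZT15 replicate 2, 4 receptors passed in place of 7. *Ccr6*, *Ccr9*, *Cx3cr1* and *Cxcr3* passed in all 24 cases.

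**Figure D3:**
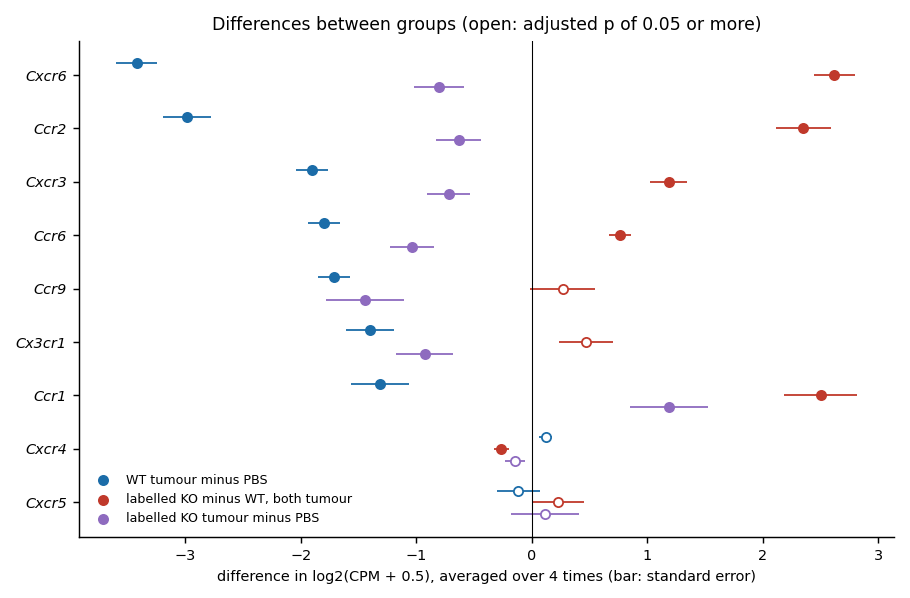
Difference in log2(CPM + 0.5) averaged over the 4 timepoints for WT tumour minus PBS, KO minus WT tumour and KO tumour minus PBS. Points are limma estimates, bars are standard errors and open points have an adjusted p of 0.05 or more. *Cxcr6* runs from −3.42 to 2.62 across these comparisons, and *Cxcr4* stays between −0.26 and 0.12.

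Most lists of markers of other leukocytes moved with the receptors. In WT tumour against PBS libraries, where 24.6% of all genes were lower, 6 of 6 NK cell markers, 8 of 8 monocyte and macrophage markers, 5 of 6 plasmacytoid DC markers, 4 of 4 markers of group 3 innate lymphoid cells and 7 of 7 T cell markers tested were lower. B cell markers were lower in 4 of 6 cases, cDC2 markers in 4 of 6, general DC markers in 3 of 6, granulocyte markers in 1 of 4 (*Csf3r*) and Langerhans cell markers in 1 of 2 (*Epcam*), and of the 6 cDC1 markers 5 were lower and 1 higher. Of the 6 migratory DC markers, 2 (*Fscn1* and *Cacnb3*) were higher and none was lower. In KO against WT libraries, where 23.5% of all genes were higher, 4 of 6 NK cell, 7 of 8 monocyte and macrophage, 4 of 6 plasmacytoid DC, 4 of 4 innate lymphoid, 4 of 6 cDC2 and 2 of 2 Langerhans cell markers were higher, as were 2 of 7 T cell, 2 of 6 B cell and 1 of 4 granulocyte markers, which is near that share, and of the cDC1 markers 2 were higher and 1 lower. In limma 0 of the 6 migratory DC and 0 of the 6 general DC markers passed in that comparison, with 3 and 1 at an unadjusted p under 0.05. In KO against PBS libraries, where 4.30% of all genes were lower, 6 of 6 plasmacytoid DC, 4 of 8 monocyte and macrophage, 3 of 6 NK cell, 3 of 6 cDC1, 2 of 6 cDC2 and 1 each of the T cell, innate lymphoid, granulocyte and general DC markers were lower, 2 of 2 Langerhans cell markers and *Fscn1* of the migratory DC markers were higher, and of the B cell markers 0 passed in limma, with 1 at an unadjusted p under 0.05. The part of these cells in the receptor differences was not tested.

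The summed NK cell markers were 4.80 to 20.3 CPM in WT (median 9.41), 11.4 to 72.2 CPM in KO (median 29.6) and 39.5 to 351 CPM in PBS libraries (median 74.8). Monocyte and macrophage markers were 375 to 1032 CPM in WT (median 629), 829 to 2779 CPM in KO (median 1528) and 1659 to 3055 CPM in PBS libraries (median 2292). This order of WT, KO and PBS by median was not particular to these cells, since 9 of the 12 marker lists had it, all but the cDC1, Langerhans cell and migratory DC lists. Of the 9 receptors, *Cxcr6*, *Ccr2*, *Cxcr3*, *Ccr6*, *Ccr9* and *Cx3cr1* had it. Markers at 0 in some WT libraries were *Ncr1*, *Klrb1c*, *Eomes*, *Pax5*, *Blk*, *Cox6a2*, *Ccdc162*, *Fcgr1*, *Il22* and all 4 granulocyte markers. In some KO libraries they were *Eomes*, *Klre1*, *Pax5*, *Ccdc162* and all 4 granulocyte markers. The cDC1 marker *Clec9a*, whose promoter drives the Cre, was at 0 in 1 KO library. In some PBS libraries they were *Pax5*, *Ccdc162*, *S100a9* and *Retnlg*. No marker of any list was at 0 in every library of a group. Summed levels of plasmacytoid DC markers were 161 to 254 CPM in WT, 142 to 348 CPM in KO and 262 to 419 CPM in PBS libraries. T cell markers were 193 to 506 CPM in WT, 320 to 797 CPM in KO and 385 to 922 CPM in PBS libraries, and markers of group 3 innate lymphoid cells 140 to 196, 206 to 423 and 188 to 352 CPM. B cell markers were 34.1 to 61.9, 50.5 to 142 and 62.2 to 117 CPM, and granulocyte markers 0 to 21.9, 0.694 to 22 and 3.78 to 25.9 CPM. The summed cDC1 markers were 704 to 1018 CPM in WT, 752 to 1028 CPM in KO and 907 to 1418 CPM in PBS libraries, the cDC2 markers 137 to 283, 143 to 629 and 190 to 374 CPM, and the 2 Langerhans cell markers 49.4 to 86.9, 67.5 to 131 and 59.7 to 89.6 CPM.

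**Figure D4:**
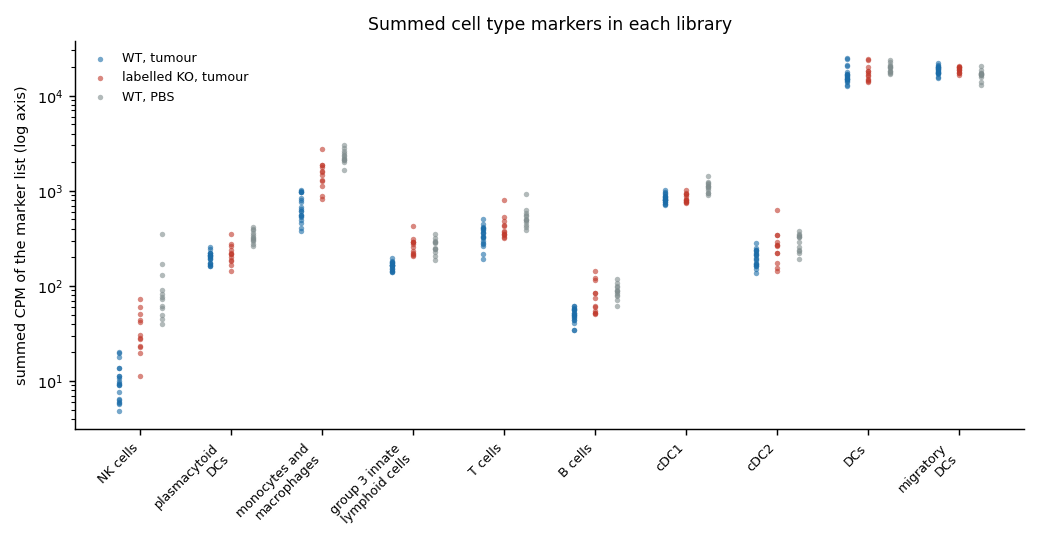
Summed CPM of cell type marker lists (log axis), with 1 point per library, in WT tumour, KO tumour and PBS libraries. NK cell markers (medians 9.41, 29.6 and 74.8 CPM in WT, KO and PBS) and monocyte and macrophage markers (629, 1528 and 2292 CPM) differ between groups, and migratory DC markers lie between 12990 and 22180 CPM in all groups.

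Time of day was examined next, first in WT libraries. Cells were collected 24 h after injection, at the same time of day, so effects of injection time and collection time cannot be told apart. Of the 9 receptors, 4 varied over the 4 timepoints (F test in limma, with adjusted p under 0.05), where 5.28% of all genes did. They were *Cxcr6* (adjusted p = 0.00245), *Ccr2* (0.00702), *Ccr6* (0.0140) and *Cxcr3* (0.0427). *Cx3cr1* missed the threshold (limma adjusted p = 0.0542). It passed without ZT21 replicate 1, its highest ZT21 library (adjusted p = 0.0378), and with a pseudocount of 1 (0.0465), median-of-ratios scaling (0.0388), an intensity trend (0.0291) or array weights (0.0398). *Cxcr3* lost the call in 12 of 20 cases with 1 library omitted (adjusted p up to 0.109) and also with no filter on low values (limma adjusted p = 0.0508).

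*Cxcr6*, *Ccr2* and *Cx3cr1* were high at both ZT3 and ZT15 and low at both ZT9 and ZT21. *Cxcr6* was 22.5 ± 9.10 CPM at ZT3, 5.70 ± 1.13 at ZT9, 26.2 ± 8.53 at ZT15 and 11.97 ± 4.13 CPM at ZT21 (SD, n = 5 each). *Ccr2* was 15.3 ± 4.97, 2.99 ± 2.49, 12.2 ± 2.36 and 5.44 ± 1.98 CPM, and *Cx3cr1* 9.501 ± 2.77, 3.81 ± 2.11, 10.8 ± 4.23 and 6.73 ± 3.63 CPM, at the same times. All 10 *Ccr2* values of ZT3 and ZT15 (9.56 to 21.3 CPM) were above all 10 of ZT9 and ZT21 (0.288 to 8.57 CPM).

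ZT3 and ZT15 together were compared with ZT9 and ZT21, a contrast chosen after this pattern was seen, so that its p-values describe it and are not independent support. Of the 9 receptors, 5 passed and were higher at ZT3 and ZT15. Over all genes 9.50% passed and 2.33% passed as higher, with 279 higher and 858 lower. *Ccr2* was 1.81 higher (standard error 0.30, limma adjusted p = 0.00216), *Cxcr6* 1.47 (standard error 0.20, adjusted p = 0.00129), *Cx3cr1* 1.02 (standard error 0.27, adjusted p = 0.0230), *Cxcr3* 0.56 (standard error 0.17, adjusted p = 0.0472) and *Ccr6* 0.38 (standard error 0.09, adjusted p = 0.0169). *Cxcr3* was 4.54 ± 0.852 CPM at ZT3, 2.68 ± 1.03 at ZT9, 6.39 ± 2.14 at ZT15 and 4.63 ± 1.36 CPM at ZT21 (SD, n = 5), so that ZT3 was not above ZT21, and lost the call in 14 of 20 cases with 1 library left out (adjusted p up to 0.0885). *Ccr6* was lowest at ZT9 (13.1 ± 0.775 CPM) and close at ZT15 and ZT21 (18.6 ± 1.505 and 18.5 ± 1.31 CPM, SD, n = 5). *Ccr1*, *Ccr9*, *Cxcr4* and *Cxcr5* differed by 0.44, 0.09, 0.05 and −0.21 and did not pass.

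Monocyte and macrophage markers had the same direction, with 7 of 8 higher at ZT3 and ZT15 and summed levels of 556 to 1032 CPM (median 909) against 375 to 645 CPM (median 534) at ZT9 and ZT21. Of the NK cell markers 2 of 6 (*Ncr1* and *Klrb1c*) and of the cDC2 markers 2 of 6 (*Cd209a* and *Mgl2*) were higher, as was 1 of 6 plasmacytoid DC markers (*Cox6a2*). Of all genes, 2.33% passed as higher. Summed NK cell markers had a median of 12.5 CPM at ZT3 and ZT15 and 6.4 CPM at ZT9 and ZT21. For group 3 innate lymphoid markers these medians were 157 and 171 CPM. Of the general DC markers *H2-Ab1* and *Cd74* were higher and *Flt3* lower, and of the migratory DC markers *Cacnb3* was lower. The part of these cells in the alternation was not tested. The study kept some mice in cabinets with a shifted light cycle, and the sources used here do not give which libraries were handled together. Times of day and such handling cannot be told apart here.

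A cosinor with a 24 h period, which fits a single peak a day, gave an unadjusted p under 0.05 for 3 of 9 receptors in WT libraries, against 9.20% of all genes. *Ccr9* had an amplitude of 0.46 on the log2 scale and a peak at 20.3 h (limma adjusted p = 0.378), *Ccr6* an amplitude of 0.27 and a peak at 22.9 h (adjusted p = 0.432), and *Cxcr3* an amplitude of 0.41 and a peak at 19.0 h (adjusted p = 0.520). *Ccr2* and *Cxcr6*, with the smallest p in the test of all 4 times, had cosinor adjusted p of 0.736 and 0.689 in limma. The count of 3 changed with the libraries included, since omitting ZT9 replicate 4 left 1 receptor and omitting ZT3 replicate 3 gave 5. Of the T cell markers, 6 of 7 (*Cd3d*, *Cd3e*, *Cd3g*, *Cd247*, *Lck* and *Cd2*) had a limma cosinor p under 0.05 in the same libraries without adjustment. With adjustment, 2 (*Cd3g* and *Cd3d*) passed the F test over time, against 5.28% of all genes. The part of these cells in the time course of the receptors was not tested.

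ZT9 against ZT21, a pair of times that the study set against each other, gave 0 of 9 receptors with a change of at least 2-fold at a limma adjusted p under 0.05, against 0.0669% of all genes. At an unadjusted p under 0.05, 6 of 9 differed (11.5% of all genes) and all 6 were lower at ZT9. The log2 differences were −1.07 for *Ccr2* (standard error 0.42, adjusted p = 0.350), −0.95 for *Cxcr6* (standard error 0.28, adjusted p = 0.193), −0.90 for *Ccr9* (standard error 0.27, adjusted p = 0.196), −0.82 for *Cx3cr1* (standard error 0.38, adjusted p = 0.416), −0.72 for *Cxcr3* (standard error 0.24, adjusted p = 0.269) and −0.48 for *Ccr6* (standard error 0.13, adjusted p = 0.166). Without ZT9 replicate 1 *Ccr2* was −0.62, and without ZT9 replicate 5 *Cx3cr1* was −0.45. Summed T cell markers were 193 to 337 CPM at ZT9 and 299 to 506 CPM at ZT21, and monocyte and macrophage markers 375 to 539 and 529 to 645 CPM. The median differences of the T cell, cDC2 and monocyte lists were −0.67, −0.51 and −0.42, and at an unadjusted p under 0.05 in limma 6 of 7, 3 of 6 and 4 of 8 of their markers differed, with *Cd3g* (adjusted p = 0.0184) past the adjusted threshold at less than 2-fold. Their part in these differences was not tested.

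In KO libraries, 0 of 9 receptors and 0% of all genes differed over time (limma F test, adjusted p under 0.05), with 3 libraries per timepoint in place of 5. At an unadjusted p under 0.05 this was 1 receptor, *Ccr2* (adjusted p = 0.290), against 10.3% of all genes. ZT3 and ZT15 against ZT9 and ZT21 gave 0 receptors and 0% of all genes at an adjusted p under 0.05, and at an unadjusted p under 0.05 *Ccr2* (1.25, standard error 0.34) and *Ccr9* (1.95, standard error 0.63), 2 of 9 against 6.97% of all genes. All 6 *Ccr9* values at ZT3 and ZT15 (10.6 to 13.3 CPM) were above the 6 at ZT9 and ZT21 (0 to 8.57 CPM). The *Ccr9* difference was 1.30 without ZT21 replicate 1, the library with no *Ccr9* read, and 2.35 without ZT21 replicate 3. *Cxcr6*, which alternated in WT libraries, differed by −0.04 (standard error 0.31). The limma cosinor gave 0 receptors at an unadjusted p under 0.05, against 10.5% of all genes, and 2 without ZT21 replicate 2. ZT9 against ZT21 gave 0 receptors against 0.00836% of all genes, and 2 (*Ccr2*, −1.17, and *Cxcr5*, 1.50) at an unadjusted p under 0.05, against 10.9%. Omitting ZT21 replicate 3 gave 0.85 for *Cxcr5*, and omitting ZT21 replicate 2 gave 2.35.

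In PBS libraries, 0 of 9 receptors and 0% of all genes differed over time in limma, and 2 receptors had an unadjusted p under 0.05, against 7.44% of all genes. *Ccr9* was 24.6, 25.4 and 24.6 CPM at ZT3, 24.7, 19.2 and 18.0 CPM at ZT9, 13.3, 10.7 and 18.8 CPM at ZT15, and 12.9, 12.7 and 12.1 CPM at ZT21 (F test, limma adjusted p = 0.447). ZT3 and ZT21 did not overlap, and *Ccr9* was the 1 receptor in the cosinor (amplitude 0.53, peak at 5.66 h, limma adjusted p = 0.587), against 7.38% of all genes. *Cxcr3* was lowest at ZT21 (12.4 ± 4.54 CPM) and highest at ZT15 (23.7 ± 6.26 CPM, SD, n = 3; F test, limma adjusted p = 0.648). ZT9 against ZT21 gave 0 receptors and 0% of all genes at an adjusted p under 0.05, and *Ccr9* (0.68) and *Cxcr3* (0.63, and 0.30 without ZT21 replicate 1) at an unadjusted p under 0.05, against 5.32% of all genes. ZT3 and ZT15 against ZT9 and ZT21 gave 0 receptors at an adjusted p (0% of all genes) and 0 at an unadjusted p under 0.05, against 5.76%.

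**Figure D5:**
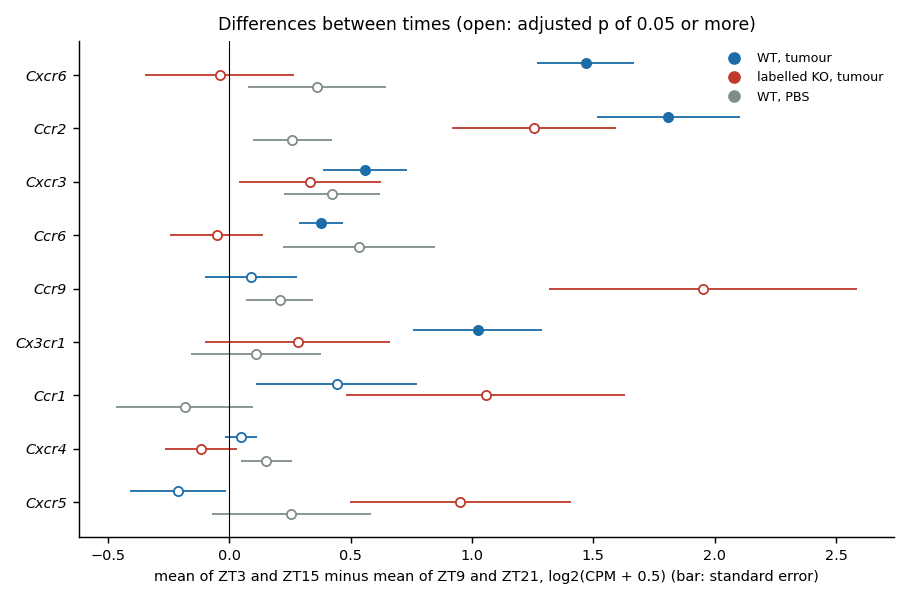
Mean of ZT3 and ZT15 minus mean of ZT9 and ZT21 in log2(CPM + 0.5) for each receptor in WT tumour, KO tumour and PBS libraries. Points are limma estimates, bars are standard errors and open points have an adjusted p of 0.05 or more. Filled points are *Ccr2* (1.81), *Cxcr6* (1.47), *Cx3cr1* (1.02), *Cxcr3* (0.56) and *Ccr6* (0.38), all in WT libraries.

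Whether the course over time differed between groups was tested by the interaction. Genotype by time gave 0 of 9 receptors at a limma adjusted p under 0.05, against 0.0502% of all genes, and 4 at an unadjusted p under 0.05, against 18.3%. The latter were *Cxcr6* (adjusted p = 0.112), *Cxcr5* (adjusted p = 0.166), *Ccr9* (adjusted p = 0.179) and *Ccr6* (adjusted p = 0.230). *Cxcr5* passed without KO ZT21 replicate 2, the KO library with 6.76 CPM beside 1.21 and 0.405 CPM (adjusted p = 0.0256). Treatment by time gave 0 receptors and 0% of all genes at an adjusted p under 0.05, and 4 receptors at an unadjusted p under 0.05, against 11.9% of all genes. These were *Ccr9* (adjusted p = 0.141), *Ccr2* (adjusted p = 0.161), *Cxcr6* (adjusted p = 0.282) and *Cxcr3* (adjusted p = 0.295). With array weights, which give less weight to more variable libraries, *Cxcr6* passed genotype by time (limma adjusted p = 0.0425).

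Genes listed as ligands of these receptors were followed in the same sorted cells, with 15 of 17 tested. In WT tumour against PBS libraries 10 were lower and 1 higher in limma, where 37.9% of all genes passed. *Ccl3*, a ligand of CCR1, fell by 2.68 (standard error 0.17, limma adjusted p = 2.59e-12). *Ccl8* fell by 1.97 (standard error 0.16, adjusted p = 1.79e-10) and *Cxcl10*, a ligand of CXCR3, by 1.68 (standard error 0.15, adjusted p = 9.95e-10). *Ccl8* was kept in the list for all counts of ligands, although whether mouse CCL8 acts on these receptors was not tested. *Cxcl16*, the ligand of CXCR6, was the 1 that was higher, at 2256 ± 139 CPM in WT (SD, n = 20) and 1798 ± 107 CPM in PBS libraries (SD, n = 12), which is 0.33 higher on the log2 scale (standard error 0.04, adjusted p = 3.56e-07). In KO against WT libraries, where 33.7% of all genes passed, 8 ligands were higher, among them *Ccl8* (1.47, standard error 0.16, adjusted p = 5.82e-08) and *Ccl3* (1.60, standard error 0.20, adjusted p = 5.91e-07). *Cxcl16* was the 1 lower ligand, at 1739 ± 161 CPM in KO libraries (SD, n = 12) and −0.38 on the log2 scale (standard error 0.04, adjusted p = 1.24e-07), so *Cxcr6* and its ligand differed in opposite directions in both comparisons.

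In KO against PBS libraries, where 9.73% of all genes passed, 3 ligands were lower, *Cxcl9* (−1.21, standard error 0.20, limma adjusted p = 0.00159), *Ccl3* (−1.08, standard error 0.20, adjusted p = 0.00377) and *Cxcl10* (−0.54, standard error 0.14, adjusted p = 0.0239). In WT libraries, ZT3 and ZT15 were higher than ZT9 and ZT21 for 4 ligands (9.50% of all genes passed), *Ccl3* (0.96, adjusted p = 0.0140), *Cxcl9* (0.59, adjusted p = 0.0203), *Cxcl10* (0.76, adjusted p = 0.0210) and *Ccl2* (1.03, adjusted p = 0.0489), and 5 differed over time in the F test (5.28% of all genes), *Ccl12*, *Cxcl9*, *Ccl3*, *Cxcl10* and *Ccl7*. *Ccl12* was the 1 ligand called between ZT9 and ZT21 (−1.27, limma adjusted p = 0.0332), against 0.0669% of all genes. *Cx3cl1*, the ligand of CX3CR1, was 180 ± 37.1 CPM in WT (SD, n = 20), 230 ± 60.2 CPM in KO and 192 ± 25.02 CPM in PBS libraries (SD, n = 12 each). *Ccl20*, the ligand of CCR6, was at 0 in 18 of 20 WT, 10 of 12 KO and 4 of 12 PBS libraries.

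Of the other chemokine receptors listed, 10 of 15 were tested. In WT tumour against PBS libraries 8 were lower in limma (24.6% of all genes), with *Ccr8* (−2.23, standard error 0.18, adjusted p = 1.72e-10), *Ccr3* (−2.28, standard error 0.20, adjusted p = 4.99e-10) and *Ccr10* (−2.69, standard error 0.23, adjusted p = 6.28e-10) having the smallest p, and the scavenging receptor *Ackr1* was higher (0.49, standard error 0.15, adjusted p = 0.00994). *Ccr7* did not pass. In KO against WT libraries 5 were higher (23.5% of all genes), among them *Ccr3* (2.74, standard error 0.20, adjusted p = 3.92e-11), *Ccr10* (2.22), *Ccr8* (1.19) and *Ccrl2* (0.36). In KO against PBS libraries 5 were lower (4.30% of all genes), *Xcr1* (−1.47), *Ccr4* (−1.15), *Ccr8* (−1.04), *Cxcr2* (−1.11) and *Ccrl2* (−0.33). *Ccr3*, *Ccr10* and *Ccrl2* shared the higher levels at ZT3 and ZT15 in WT libraries (1.17, 1.47 and 0.48), where 2.33% of all genes passed as higher. *Ccr3* and *Ccr10* also passed the F test over time there (limma adjusted p = 0.00619 and 0.0190), against 5.28% of all genes.

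Of the genes for signalling and desensitization downstream of these receptors, 16 of 20 were tested. In WT tumour against PBS libraries 5 were lower and 3 higher in limma, against 37.9% of all genes passing and 24.6% as lower, with *Rgs2*, which curbs G-protein signalling (−1.34, standard error 0.10, adjusted p = 8.74e-11), the GTPase gene *Rac2* (−1.02, standard error 0.08, adjusted p = 2.61e-10) and the G-protein subunit gene *Gnb1* (0.57, standard error 0.09, adjusted p = 1.12e-05) having the smallest p. In KO against WT libraries 6 were higher, among them *Rgs2* (0.82) and *Rac2* (0.52), and 2 were lower, *Gnai2* (−0.23) and *Gnb1* (−0.16), against 33.7% of all genes passing. Both counts are not far above these shares. In KO against PBS libraries 2 were lower, *Rgs2* (−0.52) and *Rac2* (−0.50), and 2 higher, *Gnb1* (0.41) and *Grk6* (0.56). Of all genes, 9.73% passed there and 4.30% passed as lower. In WT libraries *Rac2*, *Rgs2* and *Rac1* were higher at ZT3 and ZT15 (0.38, 0.51 and 0.18), where 9.50% of all genes passed and 2.33% passed as higher. *Rac2* and *Rac1* passed the F test over time (limma adjusted p = 0.00818 and 0.0466), against 5.28% of all genes. The median of the list stayed near 0 in these comparisons, at −0.06, 0.12 and −0.04.

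Within groups and timepoints, the receptors varied mostly apart from one another. Over the 44 libraries, as deviations from the mean of each of the 12 conditions, the highest Pearson r among the 9 was 0.68 for *Ccr6* with *Cxcr6*, followed by 0.53 for *Ccr9* with *Cxcr4* and 0.39 for *Ccr2* with *Cx3cr1*. The genes most like *Cxcr6* among all genes tested were *Actn2* (r = 0.72), the NK cell receptor gene *Klrk1* (0.71) and *Pxdc1* (0.71), and those most like *Ccr6* were *Ltb* (0.79), *Lmo4* (0.75) and *Cd7* (0.74). *Ccr9* was most like *Tchp*, *Fastkd5* and *Zyg11b* (0.80, 0.80 and 0.79), *Cxcr4* like *Eef1a1*, *Cisd3* and *Fdx1* (0.79, 0.76 and 0.74), *Cxcr3* like *Hmces*, *Riok2* and *Cd2* (0.65, 0.61 and 0.57) and *Ccr2* like *Lancl2*, *Dynlt3* and *Prpf8* (0.67, 0.65 and 0.64). *Ccr1* was most like *Slc39a8*, *Lpxn* and *Pltp* (0.67, 0.62 and 0.61), *Cx3cr1* like *Slc25a13*, *Pdlim3* and *Fads2* (0.61, 0.58 and 0.55) and *Cxcr5* like *Tapt1*, *Zfp74* and *Samd11* (0.58, 0.56 and 0.55). These values describe libraries that share their depth and sort, and were picked as the highest of 11963 genes.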

How the data were processed

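RNA of sorted CD45+CD11c+MHCIIhigh lymph node cells was sequenced in 44 libraries (SMART-Seq v4, Nextera XT, single reads). The authors aligned reads to mm10 with STAR and counted them on genes with HTSeq (version 0.9.1). They deposited CPM, scaled by library size, for 14699 genes, and every library has the same total. Groups came from the sample labels.

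Of these, 11963 reached 1 CPM in 5 or more of the 44 libraries and were tested, and 2736 did not. Linear models on log2(CPM + 0.5) were run over all genes tested in R 4.3.3 (limma version 3.58.1), with Benjamini–Hochberg adjustment, and were tested on simulated data. Descriptions were made in Python 3.11.15. Between 87.8% and 89.6% of the values above 0 of a library were within 0.02 of a whole number of reads, which gave the depth. The rest were fractions, so no count test was run. Depth was 20088013 to 55799164 reads on genes, and 1 CPM was a median of 29.6 reads. Counting limits are given only for receptors with no read in a library. P-values measure the spread between mice within a condition. The mice came from more than 1 experiment, and the labels do not say which mouse was in which, so experiments could not be entered in the fits.

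The 9 receptors, their ligands, the other lists and the markers were chosen with earlier results of these data known. All 9 receptors are named, with the 3 genes most correlated with each, *Arntl*, and from each pathway list (other receptors, ligands, signalling) the genes with an adjusted p under 0.05, at most 3 per comparison by smallest p, and counts of 5 or fewer of those. One item that this rule names is not reported here. Alternatives were the pseudocount, scaling, filter, an intensity trend, array weights, the replicate block and leaving out each library.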

Additional observations from a re-analysis of the deposited data

Results flagged for a closer look

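In WT groups of 5 libraries, a single library stood apart from the other 4 (Dixon's test at the 95% level) in 4 of 36 receptor and timepoint combinations, where chance alone gives about 5%. *Ccr1* at ZT9 was 2.56 CPM in replicate 1 and 0 to 0.0464 CPM in the others. *Cx3cr1* was 18.0 CPM in replicate 5 at ZT15, against 7.32 to 10.3 CPM, and 13.0 CPM in replicate 1 at ZT21, against 4.07 to 6.47 CPM. *Cxcr4* was 55.7 CPM in the same replicate 5 at ZT15, against 62.7 to 65.1 CPM.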

How the results depend on the processing

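The 7 receptors lower in WT tumour than in PBS libraries, and the 6 that differed between KO and WT libraries, kept direction and call under every alternative run and with any library left out, and without ZT15. Leaving out each library in turn, the number of receptors called was 3 to 4 for time in WT, 4 to 5 for ZT3 and ZT15 against ZT9 and ZT21 in WT, 1 to 5 for the cosinor in WT, 0 to 2 in KO and 1 to 1 in PBS, 6 to 7 for KO against WT, 4 to 7 for KO against PBS, 7 to 7 for WT tumour against PBS, 0 to 1 for genotype by time and 0 to 0 for the others. With array weights, 5 receptors passed the cosinor in WT and 1 (*Cxcr6*, limma adjusted p = 0.0425) genotype by time. *Ccr2* in KO against PBS was also lost with a pseudocount of 0.1 or no filter, and *Cxcr3* for ZT3 and ZT15 against ZT9 and ZT21 with those, an intensity trend or the replicate block. Median-of-ratios scaling moved the median of all genes from −0.12 to −0.0012 for ZT9 against ZT21 in KO libraries. The replicate number did not pair libraries (mean correlation of same-numbered libraries −0.01 in WT, −9e-04 in KO and −0.03 in PBS). With it as a replicate block, *Cxcr3* was no longer called over time in WT (limma adjusted p = 0.0755), *Cxcr4* was called in WT tumour against PBS (0.18), *Ccr2* was not called in KO against PBS (limma adjusted p = 0.0638), and the genes called over time in WT went from 632 to 341.

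Signs changed only in differences that were not called. For ZT9 against ZT21 these were *Cxcr4* in WT with median-of-ratios scaling (−0.028), *Ccr1* in WT (−0.19) and *Ccr1* (0.29), *Ccr9* (−0.73) and *Cx3cr1* (0.23) in KO with array weights. For ZT3 and ZT15 against ZT9 and ZT21 it was *Cxcr6* in KO with array weights (0.079), and for WT tumour against PBS *Cxcr5* without ZT15 (0.047). With single libraries left out, sign changes for ZT9 against ZT21 were in WT *Ccr1* (−0.32 to 0.38) and *Cxcr4* (−0.031 to 0.069), in KO *Ccr1* (−0.78 to 0.18), *Ccr6* (−0.0052 to 0.28), *Ccr9* (−1.05 to 1.04), *Cx3cr1* (−1.05 to 0.12) and *Cxcr4* (−0.049 to 0.39), and in PBS *Cx3cr1* (−0.081 to 0.38), *Cxcr5* (−0.60 to 0.21) and *Cxcr6* (−0.47 to 0.069). For ZT3 and ZT15 against ZT9 and ZT21 they were in KO *Ccr6* (−0.17 to 0.060) and *Cxcr6* (−0.22 to 0.14) and in PBS *Cx3cr1* (−0.033 to 0.31), and for *Cxcr5* in KO against PBS (−0.10 to 0.28) and in WT tumour against PBS (−0.20 to 2.5e-05). The cause was not tested.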
